A study of Mus musculus with 3 samples.

Results

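The enzymes that build heparan sulfate were followed in mouse embryonic stem (ES) cells on day 1 and day 2 of overexpression of the endoderm transcription factor Gata6, with day 0 as the control. Of 9 enzyme genes considered, chosen with their signals on these arrays already known, 8 had at least 1 probe set annotated to them alone: Ext1, Ext2, Ndst2, Glce, Hs2st1, Hs6st1, Hs6st2 and Hs3st1. Together they had 19 probe sets, of 45037 on the array that were not controls. Ndst1 was not analysed here. Each probe set is a group of short oligonucleotides on an Affymetrix array that reports 1 transcript or a few transcripts of a gene as a signal on a linear scale.

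The groups were ES cells at day 0 (the control), day 1 and day 2, each measured on 1 array. Per the series' design text, the cells had been modified so that Gata6 is overexpressed in response to dex, read here as dexamethasone. The labels name neither the cell line nor the dose, and they do not say whether the day 0 cells carried the modification. With 1 array per day there is no replicate and no test between days, so every difference is also one between single cultures and arrays. Days 1 and 2 also differ from day 0 in time and possibly in exposure to dex, which cannot be told apart from Gata6.

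Heparan sulfate is a long sugar chain that is built in the Golgi on core proteins of the cell surface and of the extracellular matrix. A linkage sugar is first attached to the core protein, and the EXT1 and EXT2 proteins, which work as a complex, then extend the chain. NDST enzymes exchange acetyl groups for sulfate, GLCE turns glucuronic into iduronic acid, and HS2ST1, the HS6ST enzymes and the HS3ST enzymes add sulfate at further positions. The resulting pattern governs how growth factors of the FGF, BMP and Wnt families bind. ES cells that lack heparan sulfate differentiate poorly, and in the embryo the parietal endoderm lays down a basement membrane rich in it.

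Promoter sequences were looked up for the members. The members were chosen with their signals known, so no link between a motif and a signal is read. Of the 9 genes, 7 had an entry in the RefSeq promoter table of build GRCm38.p6, which runs from 250 bases before to 50 bases after a gene's start. Those of Hs3st1 and Ext2, which were higher on day 2, are shown with that of Hs2st1, which was not. Capitals mark any match on either strand to the GATA motif (the letters GATA with A or T before them and A or G after them), the SOX motif ACAAT or the SP/KLF motif GGGCGG, and no marked matches overlap.
Hs3st1, chr5:39644582-39644881, minus strand: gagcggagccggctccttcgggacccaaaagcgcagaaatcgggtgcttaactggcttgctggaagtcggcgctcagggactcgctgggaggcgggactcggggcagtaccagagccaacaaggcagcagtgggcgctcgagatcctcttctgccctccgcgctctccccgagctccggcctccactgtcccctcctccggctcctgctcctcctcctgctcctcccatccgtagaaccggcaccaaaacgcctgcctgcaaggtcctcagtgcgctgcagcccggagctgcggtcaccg
Ext2, chr2:93822519-93822818, minus strand: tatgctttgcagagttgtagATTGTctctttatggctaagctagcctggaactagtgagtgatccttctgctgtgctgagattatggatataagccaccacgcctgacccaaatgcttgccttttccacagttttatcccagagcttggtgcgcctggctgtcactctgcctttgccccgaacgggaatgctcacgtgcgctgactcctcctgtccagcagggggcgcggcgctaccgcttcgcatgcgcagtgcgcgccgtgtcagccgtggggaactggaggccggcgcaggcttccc
Hs2st1, chr3:144570167-144570466, minus strand: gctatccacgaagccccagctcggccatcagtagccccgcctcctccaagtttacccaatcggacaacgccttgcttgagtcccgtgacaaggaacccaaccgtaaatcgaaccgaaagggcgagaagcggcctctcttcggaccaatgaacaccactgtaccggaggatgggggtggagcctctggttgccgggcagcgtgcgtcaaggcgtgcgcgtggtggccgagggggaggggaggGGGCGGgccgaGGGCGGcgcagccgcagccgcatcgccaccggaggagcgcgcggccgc

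None of the 8 promoter entries of the 7 genes held the GATA motif, which 29.8% of all 32851 promoters of this length did. The SOX motif was found in 1 entry, that of Ext2, at -230 to -226 with the start base counted as 0, and 31.0% of all promoters held it. Hs3st1 held 0 matches of any of these motifs. The SP/KLF motif, held by 35.7% of all promoters, was found 2 times in Hs2st1, 3 times each in Glce and Ndst2, 7 times in Hs6st1 and 1 time in 1 of the 2 entries of Hs6st2. The 8 windows had 53.7% to 78.0% G and C bases and 12 to 47 CpG, against a median of 52.7% and 7 CpG over all promoters, and Hs3st1 lay within that range at 67.0% and 24. These matches describe the printed windows only.

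The state of the cultures was read from 3 marker lists. All 10 primitive endoderm markers (Gata6, Gata4, Sox17, Sox7, Dab2, Pdgfra, Foxa2, Cubn, Lamb1 and Sparc) were at least 2-fold higher than on day 0 in both later cultures, and their summed signal was 6984, 79450.2 and 141244 on day 0, 1 and 2. Of 10 ES cell markers, 8 were at least 2-fold lower on day 1 (Pou5f1, Nanog, Sox2, Zfp42, Esrrb, Klf2, Tdgf1 and Fgf4) and 9 on day 2 (these and Tcl1), with sums of 89366, 21837 and 12031. Dppa3 was not among them, at 124.7, 104.4 and 183.5, a log2 ratio of 0.56 on day 2 against day 0. Of 10 fibroblast markers, which would show feeder cells, 5 lay under the floor described next on each array, among them Col1a1, Col3a1 and Postn, and the sums were 729, 450.5 and 516. Of 5 compared on day 1, 0 were higher and 1 lower, and of 4 on day 2, 1 was higher and 1 lower. The lower one was Thy1, which made up most of the day 0 sum at 421, 75.4 and 50.5, 5.59-fold lower on day 1 and under the floor on day 2. The higher one was Twist1, at 7.00, 88.9 and 112.6, at least 2.08-fold higher on day 2. Gata6 itself, which is counted in the endoderm list and sum, read 109.6, 5574 and 6069.6. As the overexpressed gene, it is no sign of cell state by itself. In such bulk cultures, fewer cells of a type and less RNA per cell cannot be told apart. The part of these shifts in the results below was not tested.

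Signals under 54.0, the 40th percentile of all values, were set to that floor before log2 ratios were taken. Each gene was represented by its brightest probe set, and a gene counts as higher or lower where the days differ at least 2-fold with the brighter signal above the floor. The only error available is the SD of a log2 ratio between probe sets of 1 gene, which fell with brightness: 0.47 where the lowest signal was under 200, 0.28 up to 1000, 0.19 up to 5000 and 0.11 beyond. It mixes measurement with any difference between the transcripts that the probe sets report. It covers neither the spread between cultures nor an error shared by a whole array.

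Of the 19 member probe sets, 14 were above the floor on at least 1 array, 11 on all arrays and 5 on none. Those 5 comprise 3 of the 4 probe sets of Hs6st2, 1 of the 3 of Ext2 and 1 of the 3 of Glce. All 8 members were represented by a probe set that was above the floor on at least 1 array. The plot of signals by day shows every probe set.

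**Figure D1:**
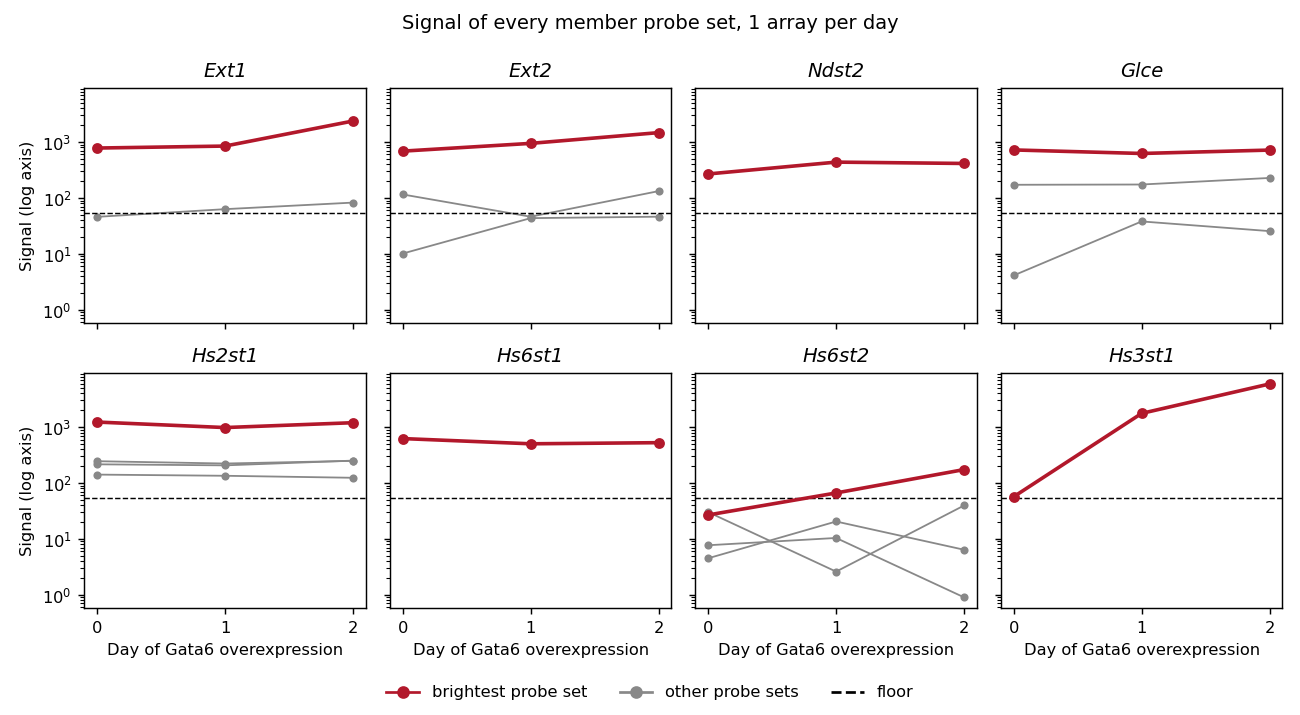
Signal (linear MAS5 units on a log axis) of all 19 probe sets of the 8 enzyme genes on day 0, 1 and 2, with 1 array per day and no error bar. Red marks the brightest probe set of each gene, grey the others, and the dashed line the floor of 54.0; Hs3st1 climbs to 5928 on day 2, whereas the 4 Hs2st1 probe sets run level.

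On day 2, 4 of the 8 enzymes were at least 2-fold higher than on day 0 (Hs3st1, Hs6st2, Ext1 and Ext2) and 0 were lower. On day 1 only Hs3st1 was higher, and none was lower. Over all genes compared, 11.0% were higher and 10.1% lower on day 2, and 6.00% higher and 6.58% lower on day 1. Between day 2 and day 1, 3 of the 8 were higher (Hs3st1, Ext1 and Hs6st2) and 0 lower, beside 5.61% and 3.67% of all genes. The members' median log2 ratio was 0.21 on day 1 and 0.86 on day 2 against day 0, and 0.46 on day 2 against day 1. With each gene as the mean over its probe sets, 2 members (Hs3st1 and Ext1) were higher on day 2 against day 0, and 1 (Hs3st1) on day 2 against day 1. Averaged in this way, 8.48% and 4.03% of all genes were higher. With the brightest probe set, the medians of all genes were -0.045 and -0.054 against day 0 and -0.008 between the later days. Both comparisons against day 0 use the same day 0 array, and the members were chosen with these values known, so nothing is read from the counts.

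The chain polymerases were taken first. Ext1, the subunit with the main polymerising activity, read 781 on day 0, 848 on day 1 and 2382 on day 2. Days 0 and 1 were close together and day 2 stood apart. The log2 ratio was 0.12 on day 1 and 1.61 on day 2 against day 0 (SD between probe sets 0.28), a 3.05-fold difference on day 2. Against day 1, day 2 was 2.81-fold higher. A second Ext1 probe set was dim, at 45.9, 63.0 and 82.6, with day 0 under the floor and day 1 near background, so no order of the days is read from it.

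Ext2, the partner of Ext1 in the polymerase complex, read 688, 947 and 1474 on day 0, 1 and 2. The signal was thus higher on each later array, with log2 ratios of 0.46 on day 1 and 1.10 on day 2 against day 0 (SD 0.28). Its 2.14-fold difference on day 2 was the smallest of those past 2-fold. Its other probe sets did not show the same course. One read 116, 46.2 and 132.5, so that it was at least 2.14-fold lower on day 1 and 1.15-fold higher on day 2 than on day 0, and the third was under the floor throughout. Averaging all probe sets of a gene gave a day 2 log2 ratio of 0.43 for Ext2 and 1.11 for Ext1. For Ext2 on day 1, averaging gave -0.21 in place of 0.46.

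Ndst2, a deacetylase and N-sulfotransferase that is best known for heparin synthesis in mast cells, read 268.5, 437.5 and 414. Day 1 and day 2 were close together and above day 0. The log2 ratio against day 0 was 0.70 on day 1 and 0.62 on day 2 (SD 0.28). At 1.63-fold and 1.54-fold it lay closest under the 2-fold threshold among the members.

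Glce, the epimerase that makes iduronic acid, read 723, 625 and 718.5 on its brightest probe set. Day 2 and day 0 were almost the same, with a log2 ratio of -0.01 on day 2 and -0.21 on day 1 (SD 0.28). A second probe set read 172, 174 and 228, a log2 ratio of 0.41 on day 2 (SD 0.47 at this level).

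Hs2st1, which adds sulfate to iduronic acid, was the member with the most probe sets above the floor. The brightest read 1233, 983 and 1200.1 on day 0, 1 and 2. The other 3 read 246, 223 and 249, then 216, 207 and 252, and then 141.5, 135 and 124. On day 2 the 4 log2 ratios against day 0 lay between -0.19 and 0.22, and on day 1 between -0.33 and -0.06. No probe set of Hs2st1 differed 1.5-fold between any pair of days.

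The 6-O-sulfotransferases came next. Hs6st1 read 624, 503 and 527, with log2 ratios of -0.31 on day 1 and -0.24 on day 2 against day 0 (SD 0.28), the lowest day 2 ratio among the members. Hs6st2 read 26.8, 66.4 and 174 on its brightest probe set. It was under the floor on day 0 and, on day 1, above the floor but under 70.2, a background level set at the 95th percentile of 80 odour and pheromone receptor probe sets, whose genes should be silent in ES cells. Its day 2 signal exceeded day 0 by at least 3.22-fold and day 1 by at least 2.62-fold. The 3 other probe sets of Hs6st2 were under the floor on each array, with a highest signal of 39.7. Raising the floor to the 60th percentile of signals changed the day 2 log2 ratio against day 0 to 0.25 in place of 1.69, and averaging all 4 probe sets gave 0.42.

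Hs3st1 had the highest ratio of the members on both days. It encodes the 3-O-sulfotransferase known for completing the antithrombin-binding site of heparan sulfate. Its single probe set read 56.7 on day 0, 1762 on day 1 and 5928 on day 2. Its name ending marks probe sets that match several transcripts of 1 gene. Leaving these out, together with the classes that can match other genes, removes Hs3st1 from every comparison. It leaves 0 members higher on day 1, beside 5.94% of all genes. The day 0 signal was at the level of the receptor background, and the later days were each far above it and above each other. Hs3st1 was at least 31.1-fold higher on day 1 and at least 104.5-fold higher on day 2 than on day 0, log2 ratios of 4.96 and 6.71 (SD 0.47 at the day 0 level). Day 2 was 3.365-fold higher than day 1, a log2 ratio of 1.75 beside an SD of 0.19 at this level. A floor at the 60th percentile lowered these log2 ratios against day 0 to 3.59 for day 1 and 5.34 for day 2.

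Between day 2 and day 1, Hs3st1 ranked 165th from the highest of 13468 genes compared. No rank is given for its ratios against day 0 or for any ratio of Hs6st2, since these are lower bounds. Ext1 had a higher ratio than 94.97% of genes in day 2 against day 0 and than 98.0% in day 2 against day 1, but only than 62.9% in day 1 against day 0. Hs2st1, Glce and Hs6st1 were above 50.8%, 52.8% and 38.6% of genes on day 2 against day 0, near the middle.

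**Figure D2:**
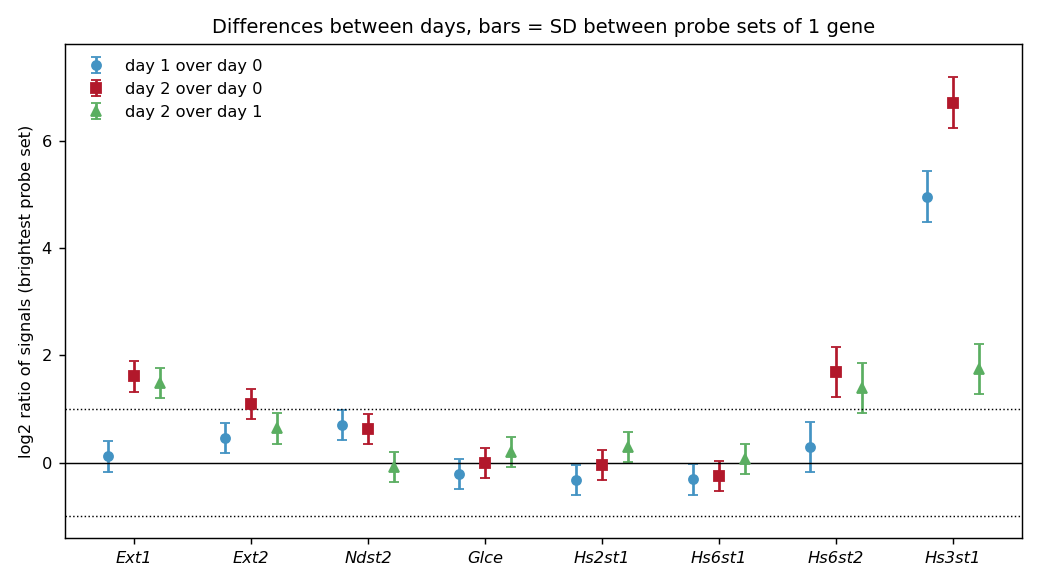
Log2 ratio between days (vertical axis) of the brightest probe set of each enzyme, for day 1 over day 0, day 2 over day 0 and day 2 over day 1; bars are 1 SD of such ratios among probe sets sharing a gene, at the level of the member's lowest signal, and dotted lines mark 2-fold. The SD came from probe sets above the floor on all arrays. It does not cover the Hs6st2 ratios against day 0, where day 0 was set to the floor. Hs3st1 reaches 4.96 and 6.71 against day 0, which like all ratios of Hs6st2 are lower bounds, Ext1 and Hs6st2 differ mainly on day 2, and Glce, Hs2st1 and Hs6st1 lie near 0.

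**Figure D3:**
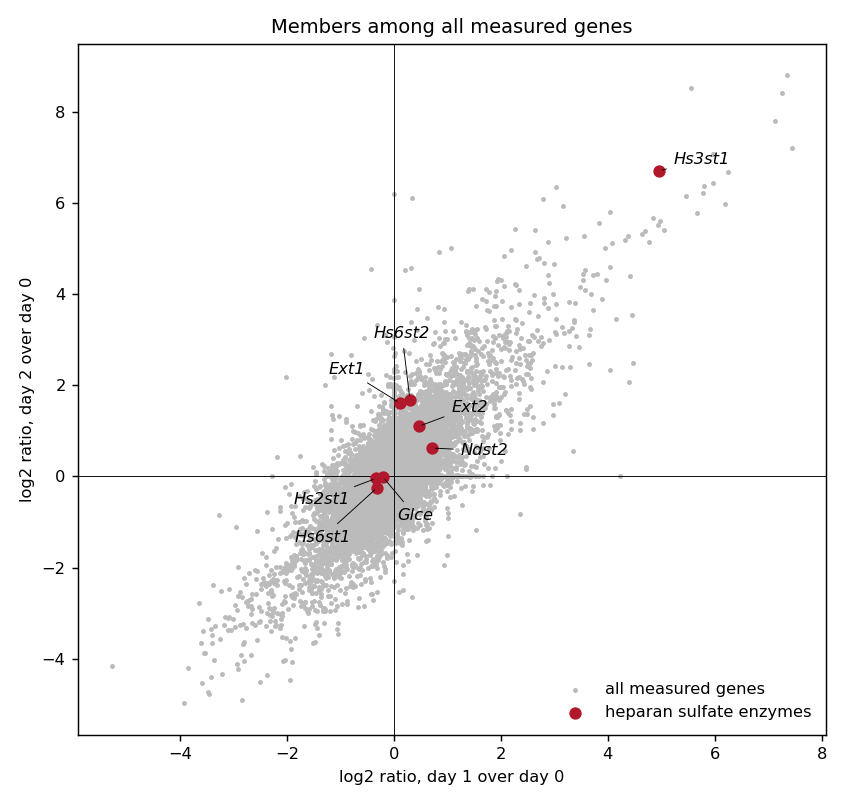
Log2 ratio on day 1 over day 0 (horizontal) against day 2 over day 0 (vertical) for 14257 measured genes (grey) and the 8 enzymes (red); both axes share the day 0 array, and the ratios of Hs3st1 and Hs6st2 are lower bounds. Hs3st1 lies at the upper right, Ext1 and Hs6st2 lie above the bulk near 0 on the horizontal axis, and Glce, Hs2st1 and Hs6st1 lie within the bulk.

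The genes most like Hs3st1 in their pair of log2 ratios against day 0 were sought over the 3 arrays. The closest were the collagen chaperone Serpinh1 (Euclidean distance 0.75), the forkhead factor Foxq1 (0.90), the secreted signal Bmp2 (0.95), Amot (1.04) and the transcription factor Gata4 (1.05). The day 0 signal of Hs3st1 was under the receptor background and those of Foxq1, Bmp2 and Gata4 were set to the floor, so these distances rest in part on where the floor lies. Each of these 5 had a smaller difference between day 2 and day 1 than Hs3st1: Serpinh1, for example, read 363, 15946.5 and 25803. When the log2 values themselves were compared in place of the ratios, Foxq1, Bmp2, Eva1a, Klb and Pcbd1 were closest, at 0.87 to 1.04. By either measure, no gene lay within 0.25 of Hs3st1. For Hs6st1, the member with the lowest day 2 ratio, 1611 genes lay within 0.25 in the pair of ratios, the nearest being Cplane1, Zw10, Ankle2, Wwp1 and Ctdp1. By log2 values the nearest to Hs6st1 were Ankle2, Hif1an, Blcap, Vcpkmt and Cttnbp2nl.

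The rest of the pathway was described from lists of 59 further genes, of which 55 were on the array. Against day 0, 16 of 51 compared on day 2 were higher and 4 lower, and their log2 ratios had a median of 0.61. For day 1 the counts were 10 and 3 of 48 and the median 0.18. Beside these counts and those of each list below, 11.0% of all genes were higher and 10.1% lower on day 2, and 6.00% higher and 6.58% lower on day 1. No list was tested.

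Chain initiation came next. Of 6 genes of the linkage region compared, 1 was higher and 1 lower on day 2, whereas 1 was lower and 0 higher on day 1. Xylt2, a xylosyltransferase that attaches the first sugar, read 234, 117 and 40.3, so that it was 2.005-fold lower on day 1 and at least 4.33-fold lower on day 2 than on day 0. B3gat3, which adds the last linkage sugar, read 325, 366 and 678, 2.08-fold higher on day 2, while its second probe set had a log2 ratio of -0.55. Fam20b, the kinase that phosphorylates the linkage xylose, read 607, 905 and 879.5, within 2-fold of day 0 on both days.

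Of the relatives of the members, 10 were compared on day 2, with 2 higher and 1 lower, and 8 on day 1, with 1 higher and 1 lower. Extl2, a glycosyltransferase related to EXT proteins, read 122, 314 and 605, 2.58-fold higher on day 1 and 4.96-fold on day 2. Its other probe set read 140.2, 159 and 285, or 2.03-fold higher on day 2. Extl1 went the other way at 311, 117 and 83.4, 2.65-fold lower on day 1 and 3.73-fold lower on day 2. Extl3, a glycosyltransferase that starts the heparan sulfate chain, read 420, 342 and 335, while its dimmer probe set was at least 2.51-fold lower on day 1.

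A second 3-O-sulfotransferase gene, Hs3st3b1, read 139, 230.1 and 389 on its brightest probe set. It was 1.66-fold higher on day 1 and 2.80-fold on day 2, a far smaller ratio than that of Hs3st1. Another 2 probe sets of Hs3st3b1 had day 2 log2 ratios of 1.20 and 0.34 and the fourth was under the floor. Hs3st3a1, Hs3st4 and Hs3st6 had no signal over 64.3 on any array, and Hs6st3 was under the floor on each.

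Of 10 genes that supply sugar precursors and the sulfate donor, 2 were higher on day 1 and 3 on day 2, and 0 were lower, with a day 2 median of 0.77. The shares of all genes higher were 6.00% on day 1 and 11.0% on day 2. Slc35b3, which carries the sulfate donor PAPS into the Golgi, read 409, 932 and 976.5, 2.28-fold higher on day 1 and 2.38-fold on day 2. Bpnt2, a Golgi phosphatase that clears the by-product of sulfation, read 723, 1719 and 1929.5, 2.38-fold and 2.67-fold higher, and its other 2 probe sets were 2.30-fold and 2.57-fold higher on day 2. The sulfate transporter gene Slc26a2 read 687, 579 and 1413. All 3 of its probe sets were between 2.06-fold and 2.41-fold higher on day 2 and within 1.5-fold of day 0 on day 1. Ugdh, which makes UDP-glucuronic acid, read 1031, 1533 and 1795, and the UDP-glucose enzyme Ugp2 read 1540, 2159 and 1710.3, both within 2-fold, although 1 of the 5 probe sets of Ugp2 was 2.21-fold and 2.29-fold higher.

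Of 3 enzymes compared that edit finished chains outside the cell, 1 was higher and 1 lower on day 2. Hpse, the heparanase that cleaves the chain, read 7.10, 559 and 566, at least 10.35-fold higher on day 1 and at least 10.5-fold on day 2. It was under the floor on day 0 and level between the later days. Sulf1, a sulfatase that removes 6-O-sulfate, read 294.5, 308 and 113, 2.61-fold lower on day 2, and its second measured probe set was at least 2.76-fold lower. The 3 probe sets of Sulf2, the other such sulfatase, had day 2 log2 ratios of -0.78, 0.23 and 0.66, so no direction is given.

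Of the core proteins that carry the chains, 6 of 15 compared on day 2 were higher and 1 lower; the day 1 counts were 5 and 1 of 14. Of all genes, 11.0% were higher and 10.1% lower on day 2, and 6.00% and 6.58% on day 1. Of the 6 glypicans, which a lipid anchor holds in the membrane, Gpc3 and Gpc6 were at least 2-fold higher on day 2. Gpc6 read 81.7, 55.4 and 670.3, 8.20-fold higher than on day 0. All 5 Gpc6 probe sets were higher on day 2, by 2.64-fold to 12.3-fold, the extremes being lower bounds. Gpc3 read 391, 293 and 1734, 4.43-fold higher on day 2 and 1.34-fold lower on day 1. Gpc4 and Gpc1 were within 2-fold on both days, and Gpc2 and Gpc5 were under the floor on each array.

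Of the syndecans, which cross the membrane, Sdc4 read 2243, 10176 and 8902, 4.54-fold and 3.97-fold higher, with a dim second probe set at 100.2, 79.5 and 146. Sdc2 read 78.7, 175.5 and 98.4 on its brightest probe set, 2.23-fold higher on day 1 and 1.25-fold on day 2. Its other probe sets did not share that course: one read 49.2, 103.4 and 102.3, another 24.7, 48.9 and 112.8, at least 2.09-fold higher on day 2, and the last was under the floor. Betaglycan (Tgfbr3) read 12.1, 259 and 1006.5, at least 4.80-fold and 18.6-fold higher, and its second probe set at least 1.88-fold and 3.34-fold. Nrp1, a receptor that can carry such chains, read 26.2, 225 and 389, at least 4.17-fold and 7.21-fold higher. Other Nrp1 probe sets were at least 1.63-fold and 5.82-fold higher, and at least 1.80-fold and 2.60-fold. The last was under the floor on day 0 and day 1 and at least 1.66-fold higher on day 2. Serglycin (Srgn), a secreted and granule core protein, was at least 164-fold and 448-fold higher. Which chains these core proteins carried in the cultures was not measured.

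Of the basement membrane core proteins, perlecan (Hspg2) read 1333.5, 2336 and 2217, and its second probe set 833.5, 2536 and 2424, so that it was 1.66-fold and 2.91-fold higher on day 2. Agrin (Agrn) was within 2-fold on both days. Collagen XVIII (Col18a1) was the lower member of the list, at 2437, 638 and 176, 3.82-fold lower on day 1 and 13.8-fold on day 2, and its second probe set was lower as well.

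**Figure D4:**
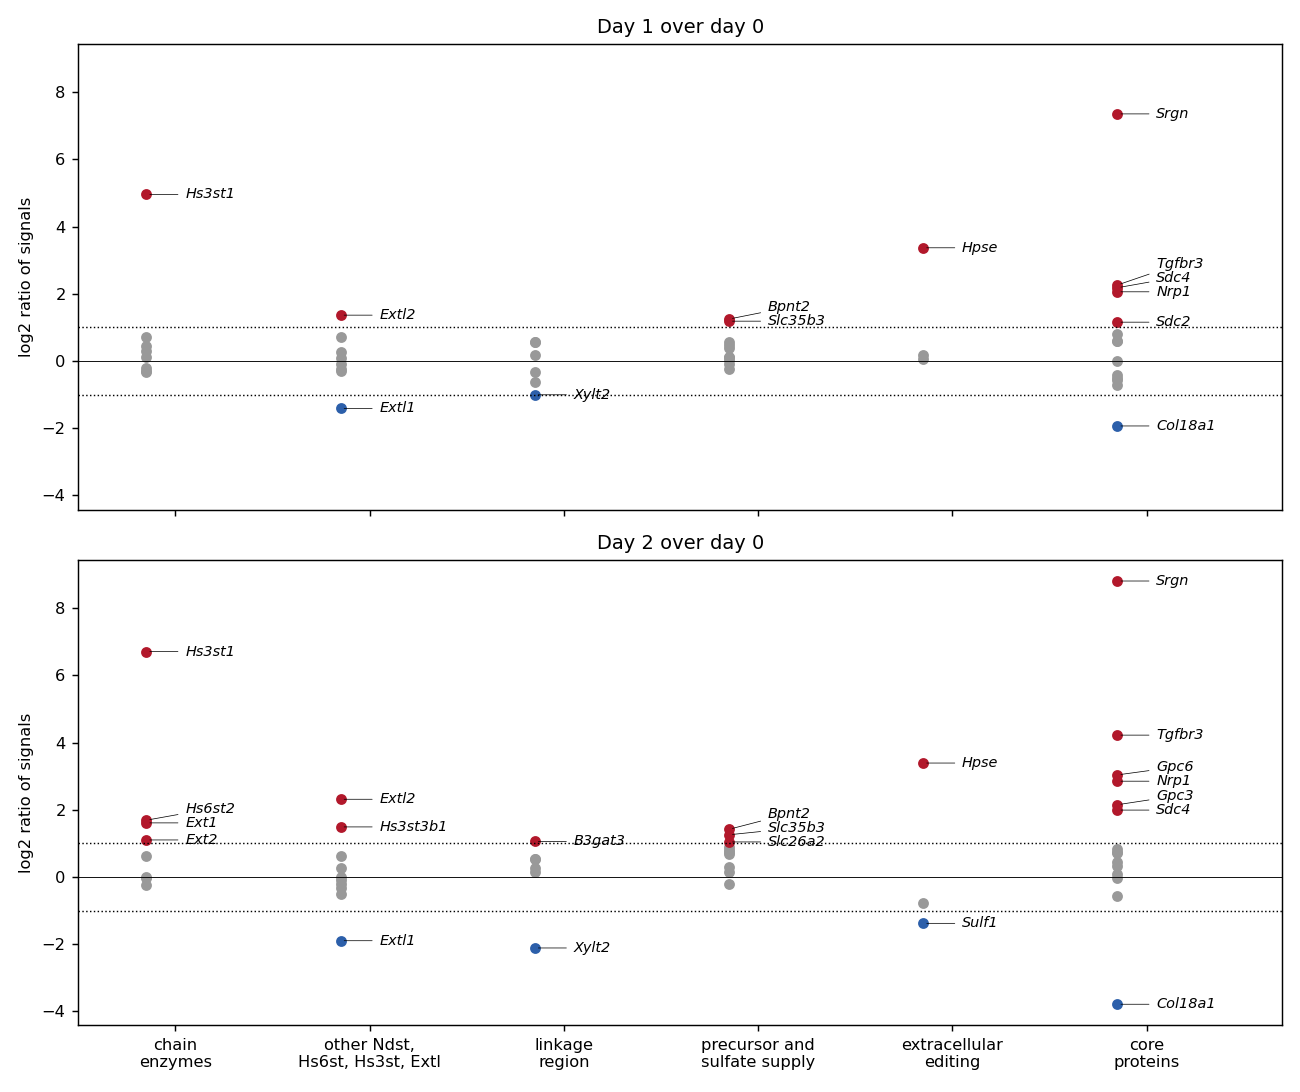
Log2 ratio (vertical axis) of each compared gene of the heparan sulfate lists except the lysosomal one, by role, day 1 over day 0 above and day 2 over day 0 below. Red is at least 2-fold higher, blue at least 2-fold lower and grey within 2-fold, and dotted lines mark 2-fold. Hs3st1, Hs6st2, Hpse, Srgn and, on day 2, Xylt2 are among the points that are bounds. On day 2 the red points include Hs3st1, Hs6st2, Ext1 and Ext2 among the chain enzymes and Gpc3 and Gpc6 among the core proteins, while Xylt2, Extl1, Sulf1 and Col18a1 are blue.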

How the data were processed

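The authors deposited 1 linear intensity value per probe set and array and, per the submitters' processing notes, used MAS5, with no version named; the target of the scaling is not stated in the labels. The 3 columns had medians of 84.2, 81.8 and 86.4 (day 0, 1 and 2) and 2% trimmed means of 497.5, 497.6 and 497.7, and 12657, 12289 and 12646 genes lay above the floor. The 3' to 5' ratio of the Actb controls was 1.25, 1.21 and 1.24. Precision is limited by the number of arrays.

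Of 45037 probe sets that were not controls, 34945 were annotated to 1 gene, 932 to several and 9160 to none. Symbols were updated by gene identifier through RefSeq (GRCm38.p6), which matched 34741. Arrays were scaled to one 2% trimmed mean, floored at 54.0 and set on the log2 scale with Python 3.11.15 and pandas 2.3.3. The brightest probe set stood for each of 18193 genes. A fold is written as at least N-fold where the dimmer signal was under the floor (fold against the floor) or under the receptor background of 70.2 (fold against that signal). The SD came from 44307 values, binned by the pair's lowest signal. Each pair of probe sets of 1 gene gave 1 value in each comparison of days, so the values are not independent. Only probe sets above the floor on all arrays entered. The steps were tested on simulated data in which only genes well above the floor were changed, so the handling of dim signals was not checked.

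The members and lists were chosen with earlier results of these data known. Named were the members, list genes at least 2-fold different from day 0, the 3 brightest of each heparan sulfate list and the 5 nearest genes by each measure of likeness; others are examples chosen after their values were seen.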

Additional observations from a re-analysis of the deposited data

How the results depend on the processing

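With each gene as the mean over its probe sets, 2 members were higher on day 2 against day 0 in place of 4, and 1 on day 2 against day 1 in place of 3. Of all genes, 8.48% and 4.03% were then higher. On day 1 against day 0, 2 members were higher in place of 1 when the floor was the 25th percentile, and also 2 when the threshold was 1.5-fold. The shares of all genes higher in these settings were 7.81% and 13.3%. The day 1 count of members was 0, beside 5.94% of all genes, with probe sets left out that by name match several transcripts or genes. This is because the only Hs3st1 probe set matches several transcripts. A 3-fold threshold left 1 member higher on day 2 against day 1, beside 1.69% of all genes. In every other setting tried the counts of higher members stayed within 1.5 times, and 0 members were lower in any of them. Of 187 member ratios recomputed under other settings, 173 moved by less than the SD between probe sets and 14 by more. Many could not move: a changed floor leaves bright signals as they are, and averaging leaves a gene with 1 probe set unchanged. The count of 173 is therefore no measure of stability. No called ratio changed sign, but that of Ext2 on day 1, which was not called, went from 0.46 to -0.21 with averaging. Over all genes, the 25th percentile floor gave 1256 higher and 1618 lower genes on day 1 in place of 816 and 895. It gave 1336 and 912 on day 2 against day 1 in place of 756 and 494. The 60th percentile floor gave 539 and 517 on day 1, and 440 and 272 on day 2 against day 1. A 3-fold threshold gave 346 and 288 on day 1, 720 and 540 on day 2 (in place of 1532 and 1399) and 228 and 112 between the later days. A 1.5-fold threshold gave 1815 and 2166, 2803 and 3031, and 2019 and 1625. A floor at the receptor background was chosen after seeing the data; with it the Hs3st1 ratio on day 2 against day 0 was 6.40. No paired analysis was possible because there is 1 array per day. Dim signals limit Hs6st2 and every ratio against a day 0 signal near the floor.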

Other observations

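Enzymes of chondroitin and dermatan sulfate, the other sulfated chains built on the same linkage sugars, were compared as well. Of 15 genes compared on day 2, 5 were higher and 0 lower than on day 0 (median log2 ratio 0.63), and of 12 on day 1, 3 were higher and 0 lower (median 0.43). Beside them, 11.0% of all genes were higher on day 2 and 6.00% on day 1. Chst15, which adds a second sulfate to chondroitin 4-sulfate, read 5.40 on day 0, 894 on day 1 and 3027 on day 2. It was at least 16.55-fold higher on day 1 and at least 56.05-fold on day 2, and its second probe set read 18.8, 630 and 1877. Day 2 was 3.39-fold higher than day 1 for Chst15 and 3.365-fold for Hs3st1. Chst12, a chondroitin 4-O-sulfotransferase, read 249.5, 822 and 834, 3.30-fold and 3.34-fold higher. The polymerising factor Chpf2 read 127, 156 and 585, 4.60-fold higher on day 2, and the dermatan 4-O-sulfotransferase Chst14 was 2.59-fold higher on day 2. Dsel, related to the dermatan epimerase, was 2.56-fold and 2.22-fold higher.

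Of 7 lysosomal genes that degrade heparan sulfate, 1 was higher on day 1 and 3 on day 2, and 0 were lower, with a day 2 median of 0.85. Of all genes, 6.00% were higher on day 1 and 11.0% on day 2. Naglu read 52.9, 78.4 and 192, at least 3.55-fold higher on day 2. Sgsh was 2.30-fold higher on day 2 on its brightest probe set and 1.71-fold on the other. Gusb was 2.05-fold higher on day 1 and 2.34-fold on day 2, with a second probe set at 1.90-fold and 1.88-fold. Hgsnat read 396, 515 and 704.5 and the brightest probe set of Ids read 454, 317 and 431, both within 2-fold of day 0.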
